A study of Homo sapiens with 10 samples.

Results

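What the XPO1 inhibitor KPT330 (selinexor) adds on top of a CDK4/6 inhibitor was examined by RNA sequencing in PLC and 97H, which the labels give as liver cancer cell lines. The members are 4 of the 10 libraries of the series, chosen by treatment and line: 2 libraries with the combination of both inhibitors (1 of PLC, 1 of 97H) and 2 with the CDK4/6 inhibitor alone (1 of PLC, 1 of 97H), compared within each line. Both groups thus carry the CDK4/6 inhibitor, whose name is not given in the labels, and they differ by the XPO1 inhibitor; KPT330 is named in the titles of the libraries with that inhibitor alone, and the combination is taken to hold the same agent. No label states a dose, an exposure time or a batch. PLC and 97H libraries with the XPO1 inhibitor alone (2) and control libraries (2; vehicle, per the treatment protocol) entered the fit, and are given where they place a value. Each treatment was sequenced once per line. The cell lines thus serve as the replicates (n = 2), and the level of each line is fitted out. The p-values therefore rest on how far treatment differences varied between the lines over all 8 PLC and 97H libraries. That variation may be technical in part. Of 10 liver markers, all 10 reached 1 FPKM in the PLC libraries and 8 in the 97H libraries (APOB and FGB were under it), while the T cell marker CD3E was listed at 0 in all 4 libraries. Of 19 markers of other cell types, 5 reached 1 FPKM in the PLC libraries and 7 in the 97H libraries, among them CD68 and KRT19 in both lines. The summed FPKM of these 19 was 237 with the combination, against 147 with the CDK4/6 inhibitor, in PLC, and 790 against 698 in 97H. Few genes set these sums: with the combination CD68 had 127 and LYZ 91.8 FPKM in PLC, and KRT19 had 634 FPKM in 97H. EPCAM was lower with the combination in PLC (9.11 against 24.5 FPKM). The summed FPKM of the 10 liver markers was 4590 against 6322 in PLC and 6838 against 3688.5 in 97H. The part of other cells in the results was not tested.

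CDK4 and CDK6, with D-type cyclins, phosphorylate the retinoblastoma protein and so release E2F factors, which switch on the genes of DNA replication. Later in the cycle MYBL2 and FOXM1, bound with the MuvB core, switch on the genes of mitosis, and the DREAM complex holds both sets silent in resting cells. XPO1 (exportin 1) carries proteins with a leucine-rich export signal, among them tumour suppressors and cell cycle regulators, out of the nucleus, together with some RNAs and ribosomal subunits. KPT330 binds the cargo groove of XPO1 covalently and blocks that export.

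With the combination, transcripts of the cell division machinery were far below their level with the CDK4/6 inhibitor in both lines, and a smaller, mixed group of transcripts was far above it. At least 2-fold lower in both PLC and 97H were 83 of 10477 tested genes (0.792%), and at least 2-fold higher in both were 31 (0.296%), the fold being that of FPKM + 1, the length-scaled unit of the authors (fragments per kilobase, set relative to library size). Of the 83 lower genes, 46 stand in 1 of 5 lists of cell cycle and replication genes, which hold 143 tested genes; none of the 31 higher genes does. In the limma fit on log2(FPKM + 1) no gene passed an adjusted p of 0.05 (0 of 10477, 0.0%). The smallest adjusted p was 0.0674. At an unadjusted p under 0.05, 209 genes were lower (1.99%) and 136 higher (1.3%), together 3.29% of the tested genes, below the 5% that would pass if no gene changed. Words of direction below therefore describe values, and counts at the unadjusted threshold are read against these shares. Genes are named by small p or by a large ratio in these same libraries. That combination values of a named gene lie outside those of other libraries therefore follows in part from that choice. The unadjusted total of 345 was 639 without the PLC control and 647 without the 97H control. With other processing, 0 to 30 genes passed the adjusted threshold, the 30 (25 lower, 5 higher) after removal of trends on GC content and length. The number was 5 without the PLC library of the XPO1 inhibitor, 8 without the 97H library of the XPO1 inhibitor and 3 without the 97H library of the CDK4/6 inhibitor. In bulk RNA, fewer cells in the cycle and less RNA per cycling cell cannot be told apart.

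**Figure D1:**
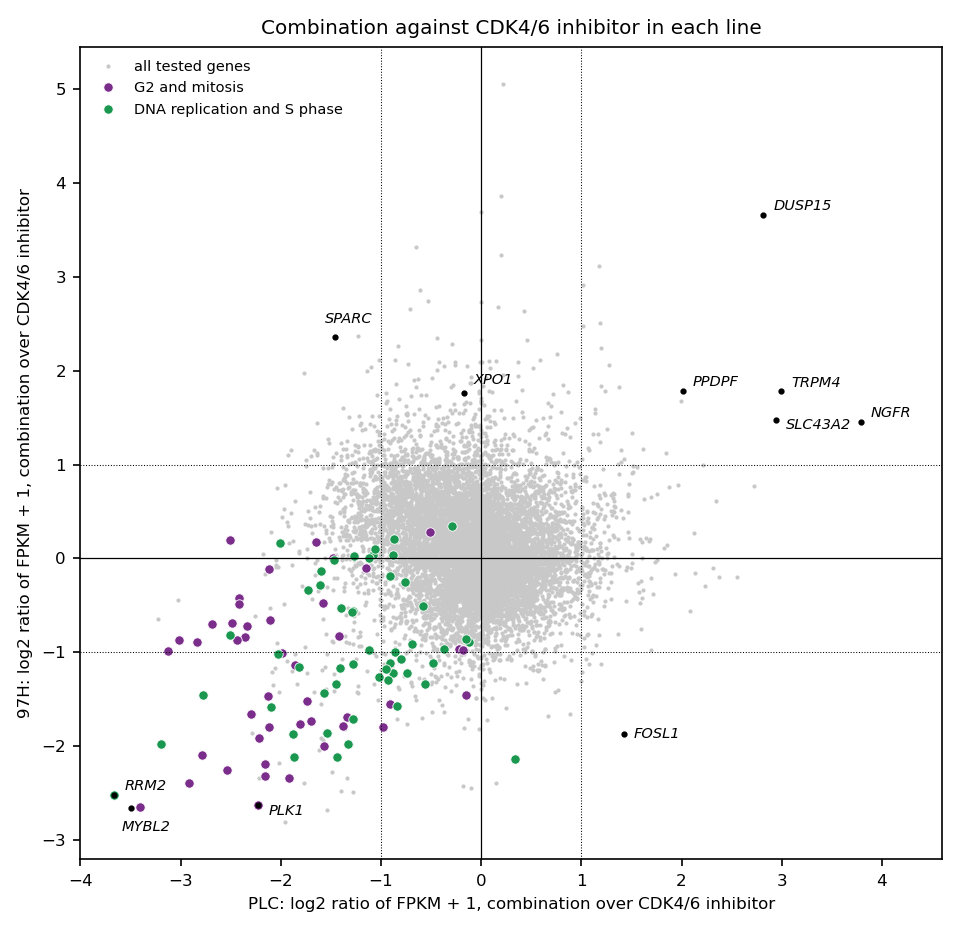
Each point is a tested gene, placed by its log2 ratio of FPKM + 1 (combination over CDK4/6 inhibitor) in PLC (x axis) and in 97H (y axis); dotted lines mark 2-fold, and members of 2 gene lists are coloured. Members of the mitosis and replication lists lie mostly in the lower left, with RRM2 at -3.66 in PLC and -2.52 in 97H, while DUSP15 lies alone at the upper right with 2.81 in PLC and 3.66 in 97H.

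The transcription factors of the late cell cycle were among the lowest. MYBL2, the MYB factor that activates mitotic genes, had 9.86 FPKM in PLC and 9.13 FPKM in 97H with the combination, against 121 FPKM in PLC and 62.7 FPKM in 97H with the CDK4/6 inhibitor. Both combination values lay below every other PLC and 97H value; these ranged from 48.2 FPKM (PLC, XPO1 inhibitor) to 159.6 FPKM (PLC, control). Its log2 difference was -3.07 (SE 0.36, limma adjusted p = 0.0674), 12.3-fold lower FPKM in PLC and 6.87-fold lower in 97H. FOXM1, the forkhead factor of the G2 phase, had 2.65 FPKM in PLC and 9.87 FPKM in 97H with the combination, against 16.0 FPKM in PLC and 54.0 FPKM in 97H with the CDK4/6 inhibitor. For FOXM1 the log2 difference was -2.28 (SE 0.37, limma adjusted p = 0.177). E2F2, an activating E2F, had 0.574 (PLC) and 0.118 (97H) FPKM with the combination, against 3.35 (PLC) and 1.62 (97H) FPKM with the CDK4/6 inhibitor. E2F8, a repressing one, had 0.0620 (PLC) and 0.0799 (97H) FPKM with the combination, against 0.810 (PLC) and 0.508 (97H) FPKM with the CDK4/6 inhibitor. In the list of E2F, RB and DREAM components, 4 of 18 tested members were lower at the unadjusted threshold and 0 higher, with a median log2 difference of -0.30 against -0.01 over all tested genes. These 4 factors make up that count, and the other 14 tested members did not reach the threshold.

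Among the 39 lists, that of G2 and mitosis had the most members past the unadjusted threshold. Of 44 tested members, 35 were lower at an unadjusted p under 0.05 and 0 higher, 20 were at least 2-fold lower in both lines, and 40 were lower in both lines to any extent. The median log2 difference was -1.59 (-2.12 in PLC, -1.07 in 97H). With the CDK4/6 inhibitor over control the list's median log2 ratio was 0.29 in PLC and -0.90 in 97H. Over all tested genes that median was 0.18 in PLC and -0.06 in 97H. With the XPO1 inhibitor over control the list's median was 0.21 in PLC and -0.735 in 97H. BIRC5 (survivin, a subunit of the chromosomal passenger complex) had 3.63 FPKM in PLC and 9.59 FPKM in 97H with the combination, against 48.0 FPKM in PLC and 65.4 FPKM in 97H with the CDK4/6 inhibitor. Its level was 49.8 FPKM in PLC and 48.6 FPKM in 97H with the XPO1 inhibitor, against 90.4 FPKM in PLC and 82.4 FPKM in 97H in the controls. Both combination values lay below those of the other 6 libraries, which follows in part from how the gene was named. The log2 difference of BIRC5 was -3.03 (SE 0.37, limma adjusted p = 0.0674). PLK1, the polo-like kinase of spindle assembly and mitotic entry, had 7.27 FPKM in PLC and 13.3 FPKM in 97H with the combination, against 37.7 FPKM in PLC and 87.2 FPKM in 97H with the CDK4/6 inhibitor. The log2 difference of PLK1 was -2.43 (SE 0.33, limma adjusted p = 0.0817). UBE2C, the ubiquitin-conjugating enzyme of the anaphase-promoting complex, had 4.10 FPKM in PLC and 5.83 FPKM in 97H with the combination, against 28.7 FPKM in PLC and 31.6 FPKM in 97H with the CDK4/6 inhibitor. KIF2C, a kinesin that depolymerises microtubules at the centromere, had 1.67 FPKM in PLC and 1.62 FPKM in 97H with the combination, against 19.2 FPKM in PLC and 12.8 FPKM in 97H with the CDK4/6 inhibitor. Their log2 differences were -2.40 (SE 0.32, limma adjusted p = 0.081) and -2.66 (SE 0.39, limma adjusted p = 0.118). In GRCh38, MYBL2 lies on chromosome 20, 43667114 to 43716482, BIRC5 on chromosome 17, 78214253 to 78225635, and PLK1 on chromosome 16, 23678889 to 23690367.

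Cyclin B, the partner of CDK1 at mitotic entry, was lower in both its main forms. CCNB1 had 17.9 FPKM in PLC and 16.3 FPKM in 97H with the combination, against 81.6 FPKM in PLC and 46.8 FPKM in 97H with the CDK4/6 inhibitor. In PLC it had 81.0 FPKM with the XPO1 inhibitor alone and 84.0 FPKM in the control. In 97H it had 43.8 FPKM with the XPO1 inhibitor alone and 83.2 FPKM in the control, so there either inhibitor alone lay below the control. CCNB2 had 5.20 (PLC) and 8.31 (97H) FPKM with the combination, against 29.5 (PLC) and 28.4 (97H) FPKM with the CDK4/6 inhibitor. CENPA, the histone H3 variant of centromeres, had 0.751 (PLC) and 2.23 (97H) FPKM with the combination, against 11.1 (PLC) and 12.7 (97H) FPKM with the CDK4/6 inhibitor, the PLC combination value being under 1 FPKM. CDCA8 (borealin, another passenger subunit), CDCA3 (a trigger of mitotic entry), TACC3 (a spindle protein), KIFC1 (a minus-end kinesin) and KIF20A (a kinesin of cytokinesis) had log2 differences of -2.13, -2.24, -1.76, -2.11 and -2.17. In each of these 5 genes both combination libraries lay below the other 6 libraries of PLC and 97H, which follows in part from how they were named. The 15 lower genes with the smallest p had adjusted p-values of 0.0674 to 0.202 in limma and standard errors of 0.31 to 0.42 on the log2 scale. With GC content and length trends removed, 14 of these 15 had a limma adjusted p under 0.05, from 0.012 for MYBL2 to 0.0498 for KIFC1, and TACC3 had 0.0554.

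**Figure D2:**
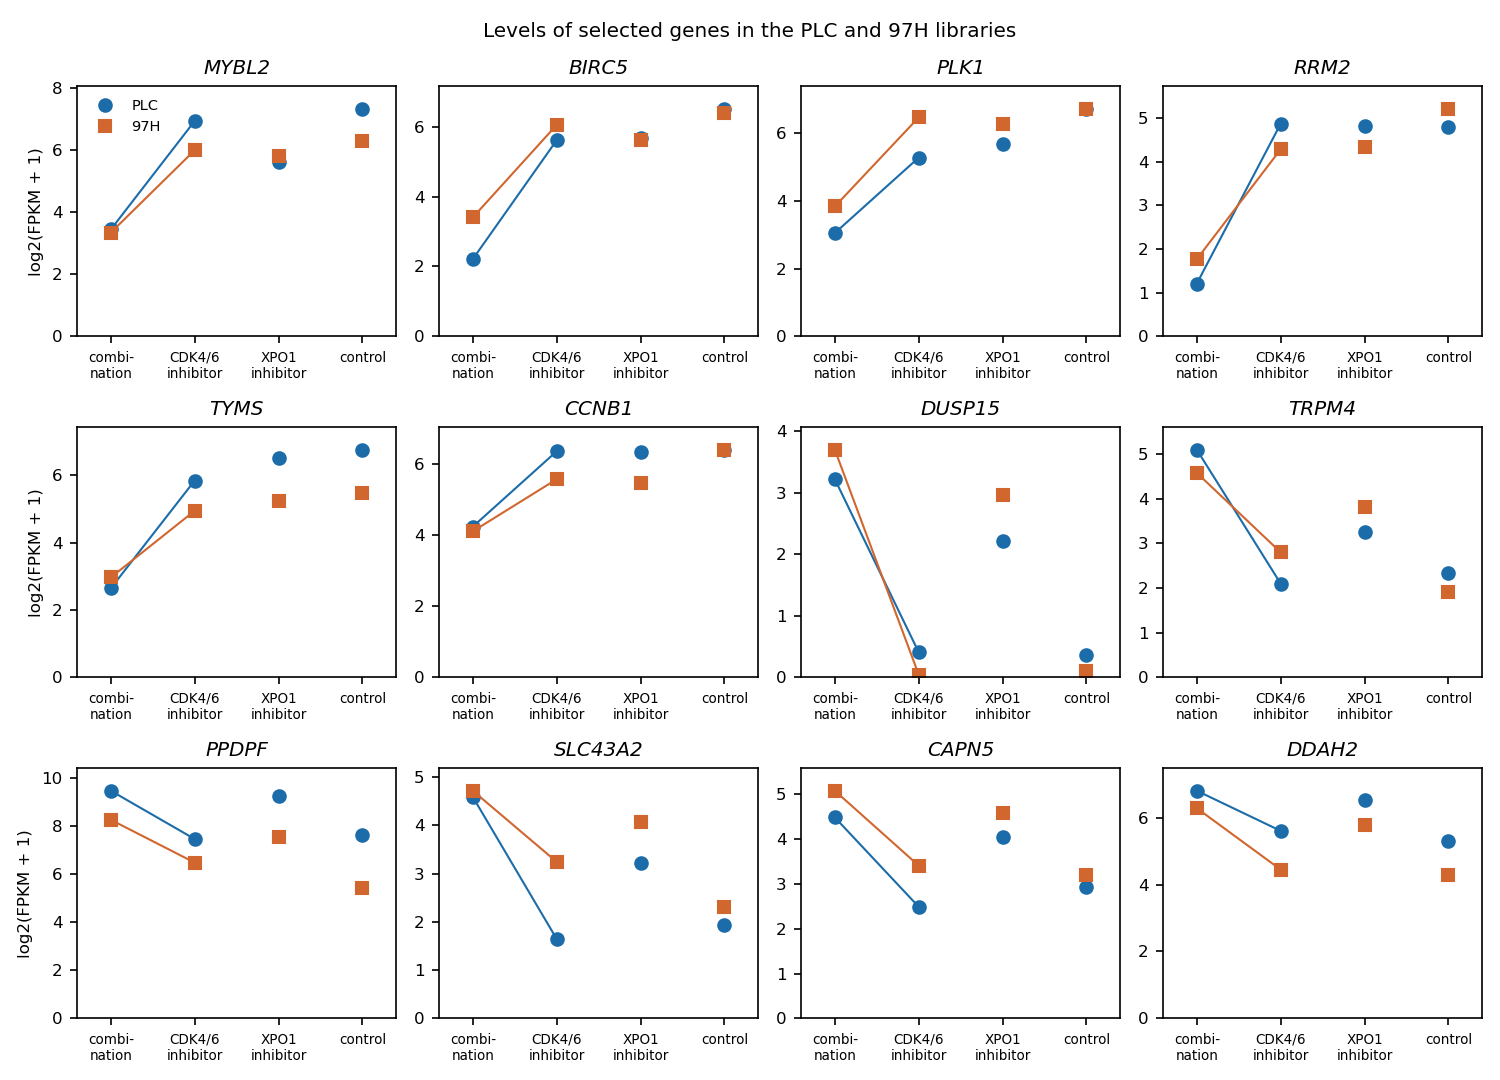
Levels (y axis, log2(FPKM + 1)) of 12 genes in the 8 libraries of PLC (circles) and 97H (squares), by treatment; lines join the combination and the CDK4/6 inhibitor of a line. For MYBL2, BIRC5, PLK1, RRM2, TYMS and CCNB1 the 2 combination libraries lie below the 6 others, and for DUSP15, TRPM4, PPDPF, SLC43A2, CAPN5 and DDAH2 the combination lies above the other treatments of its line.

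Promoters of these genes are printed because mitotic and replication genes carry short elements by which their silencing and activation are known to run: a CCAAT box bound by NF-Y, the cell cycle homology region (CHR) TTTGAA bound by the MuvB core, and E2F elements. The sequences (RefSeq, GRCh38.p14, plus strand for all 5, 250 bases before to 50 bases after the annotated start, 5′ to 3′) have in capitals each match on either strand to CCAAT, to TTTGAA, or to an E2F form. The E2F forms searched were TTGGCGC in the first place, then the variant TTCCCGC, then the variant TTGCCGC, and last the variant TTCGCGC. The windows are chr16:23678639-23678938 (PLK1), chr15:59104896-59105195 (CCNB2), chr2:26785806-26786105 (CENPA), chr18:657403-657702 (TYMS) and chr2:10122489-10122788 (RRM2, the first of 2 annotated starts).
PLK1: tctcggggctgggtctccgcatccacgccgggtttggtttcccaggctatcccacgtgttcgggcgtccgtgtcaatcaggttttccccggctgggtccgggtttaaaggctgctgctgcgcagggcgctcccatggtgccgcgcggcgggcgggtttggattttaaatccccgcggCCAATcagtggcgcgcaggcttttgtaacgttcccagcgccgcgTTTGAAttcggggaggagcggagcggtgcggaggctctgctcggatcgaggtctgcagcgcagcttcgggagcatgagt
CCNB2: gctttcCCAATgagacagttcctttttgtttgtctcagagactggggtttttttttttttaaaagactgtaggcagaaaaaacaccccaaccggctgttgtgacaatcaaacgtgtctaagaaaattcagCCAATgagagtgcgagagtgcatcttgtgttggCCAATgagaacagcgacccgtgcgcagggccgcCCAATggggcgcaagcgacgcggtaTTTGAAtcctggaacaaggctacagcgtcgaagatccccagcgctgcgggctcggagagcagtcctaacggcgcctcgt
CENPA: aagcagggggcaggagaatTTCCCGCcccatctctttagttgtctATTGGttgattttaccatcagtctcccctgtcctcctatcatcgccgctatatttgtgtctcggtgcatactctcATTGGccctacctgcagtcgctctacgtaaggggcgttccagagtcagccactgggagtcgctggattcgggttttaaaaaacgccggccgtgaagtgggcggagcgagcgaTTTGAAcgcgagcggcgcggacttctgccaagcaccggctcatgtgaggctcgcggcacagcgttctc
TYMS: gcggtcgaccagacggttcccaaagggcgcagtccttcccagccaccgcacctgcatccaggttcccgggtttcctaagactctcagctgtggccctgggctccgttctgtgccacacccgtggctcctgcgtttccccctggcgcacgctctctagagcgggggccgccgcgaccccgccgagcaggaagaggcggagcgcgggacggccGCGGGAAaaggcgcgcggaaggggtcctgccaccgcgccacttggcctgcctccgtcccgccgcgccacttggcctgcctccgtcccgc
RRM2: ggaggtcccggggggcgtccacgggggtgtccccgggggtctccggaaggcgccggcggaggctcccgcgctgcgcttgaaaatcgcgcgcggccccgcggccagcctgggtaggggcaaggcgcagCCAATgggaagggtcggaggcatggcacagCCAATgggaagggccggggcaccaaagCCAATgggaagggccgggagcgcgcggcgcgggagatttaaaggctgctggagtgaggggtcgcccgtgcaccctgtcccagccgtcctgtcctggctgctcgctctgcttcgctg
PLK1 and CCNB2 hold TTTGAA 29 bases before the start and CENPA 18 bases before it, each downstream of at least 1 CCAAT box, whereas the TYMS window holds an E2F form 39 bases before the start and the RRM2 window shown 3 CCAAT boxes. The window of the second annotated RRM2 start, not shown, holds 1 CCAAT box and an E2F form 192 bases before that start.

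Over the tested genes with a promoter in the table (8622 of 10477), 43.4% held CCAAT, 12.9% TTTGAA and 25.3% an E2F form; over all 35116 promoters of the table the shares were 34.6%, 15.2% and 13.0%. A gene was counted if any of its promoter windows held a match, whereas the 35116 are single windows, so the shares differ in unit. Among the 83 lower genes, 71 had a promoter, of which 50 held CCAAT (70.4%), 28 TTTGAA (39.4%) and 34 an E2F form (47.9%). The mitosis list held TTTGAA in 27 of 37 genes with a promoter and an E2F form in 14, and the replication list TTTGAA in 4 of 44 and an E2F form in 33. Within the mitosis list the median log2 difference was -1.60 over the 27 genes with TTTGAA and -1.61 over the 10 without it, and over all 612 tested genes with both CCAAT and TTTGAA it was -0.04. Among the 31 higher genes, 21 had a promoter, of which 10 held CCAAT, 3 TTTGAA and 6 an E2F form. The letters of an E2F form and of a CCAAT box can overlap on opposite strands, and a match describes the sequence only.

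Genes of DNA replication and S phase were lower as a second group. Of 52 tested members, 31 were lower at the unadjusted threshold and 0 higher; 17 were at least 2-fold lower in both lines, and the median log2 difference was -0.97 (-1.19 in PLC, -1.05 in 97H). RRM2, the regulated subunit of ribonucleotide reductase, had 1.31 FPKM in PLC and 2.41 FPKM in 97H with the combination, against 28.3 FPKM in PLC and 18.5 FPKM in 97H with the CDK4/6 inhibitor, so that its FPKM was 21.6-fold lower in PLC and 7.70-fold lower in 97H. Its levels in the other libraries ran from 18.5 to 36.2 FPKM, and its log2 difference was -3.09 (SE 0.40, limma adjusted p = 0.081). TYMS, the thymidylate synthase that makes dTMP, had 5.25 FPKM in PLC and 6.80 FPKM in 97H with the combination, against 56.3 FPKM in PLC and 29.8 FPKM in 97H with the CDK4/6 inhibitor. The log2 difference of TYMS was -2.59 (SE 0.42, limma adjusted p = 0.177). TK1, the thymidine kinase of S phase, had 8.99 (PLC) and 24.5 (97H) FPKM with the combination, against 41.8 (PLC) and 75.6 (97H) FPKM with the CDK4/6 inhibitor. ASF1B, a histone chaperone of replication, had 7.17 (PLC) and 7.39 (97H) FPKM with the combination, against 28.9 (PLC) and 35.5 (97H) FPKM with the CDK4/6 inhibitor. For all 4 genes, both combination libraries lay below the other 6, with the same limit of how they were named. RRM2 lies on chromosome 2, 10122568 to 10211010, and TYMS on chromosome 18, 657653 to 673578.

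The list of homologous recombination and Fanconi repair and that of cyclins and CDKs of G1 followed with smaller counts. In the recombination and Fanconi list, 6 of 18 tested members were lower at the unadjusted threshold, 16 were lower in both lines, and the median log2 difference was -0.85 (-1.07 in PLC, -0.68 in 97H). RAD54L, a DNA motor protein of homologous recombination, EXO1, a resection nuclease, and CHEK1, the checkpoint kinase, had log2 differences of -1.51, -1.36 and -1.09. The list of cyclins and CDKs of G1 also holds cyclin A2, CDC25A and CKS2. Of its 12 tested members, 7 were lower at the unadjusted threshold and 0 higher, the median being -0.76 (-1.02 in PLC, -0.63 in 97H). CCNA2 (cyclin A2, which the replication list also holds) had 1.61 (PLC) and 2.11 (97H) FPKM with the combination, against 16.9 (PLC) and 7.55 (97H) FPKM with the CDK4/6 inhibitor. CDC25A, the phosphatase that activates CDK2, had 3.38 (PLC) and 1.16 (97H) FPKM with the combination, against 7.97 (PLC) and 5.14 (97H) FPKM with the CDK4/6 inhibitor. CDK2 itself had 10.6 (PLC) and 12.9 (97H) FPKM with the combination, against 22.4 (PLC) and 20.2 (97H) FPKM with the CDK4/6 inhibitor. CKS2, a CDK-binding subunit, had a log2 difference of -1.02. None of these named members is a D-type or E-type cyclin.

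CDK inhibitors lay on both sides of 0. CDKN2C (p18), an INK4 inhibitor of CDK4 and CDK6 and itself an E2F target, had 4.28 FPKM in PLC and 0.661 FPKM in 97H with the combination, against 12.0 FPKM in PLC and 5.60 FPKM in 97H with the CDK4/6 inhibitor, a log2 difference of -1.64 (SE 0.44, limma unadjusted p = 0.00452). CDKN1A (p21), the inhibitor induced by DNA damage, had 39.4 FPKM in PLC and 71.3 FPKM in 97H with the combination, against 13.7 FPKM in PLC and 44.6 FPKM in 97H with the CDK4/6 inhibitor. CDKN2B (p15), another INK4 inhibitor, had 4.75 FPKM in PLC and 27.0 FPKM in 97H with the combination, against 3.02 FPKM in PLC and 5.89 FPKM in 97H with the CDK4/6 inhibitor. Their log2 differences were 1.06 and 1.27 (limma unadjusted p = 0.0236 and 0.0291), and CDKN2D (p19) had 0.41. The control had 4.19 FPKM of CDKN1A in PLC and 26.0 FPKM in 97H. With the XPO1 inhibitor alone it had 16.1 FPKM in PLC and 42.4 FPKM in 97H, so the combination was the highest of the 4 in each line. Among 22 tested damage response genes of the CDKN1A type, 3 were higher at the unadjusted threshold (CDKN1A, DDB2 and GDF15) and 1 lower (AEN), with a median of -0.08. DDB2, a sensor of ultraviolet damage, had 39.4 (PLC) and 14.5 (97H) FPKM with the combination, against 13.2 (PLC) and 7.26 (97H) FPKM with the CDK4/6 inhibitor. GDF15, a secreted stress cytokine, had 449.7 (PLC) and 48.0 (97H) FPKM with the combination, against 190.2 (PLC) and 29.7 (97H) FPKM with the CDK4/6 inhibitor. AEN, an apoptosis nuclease, had 10.1 (PLC) and 6.74 (97H) FPKM with the combination, against 17.6 (PLC) and 25.3 (97H) FPKM with the CDK4/6 inhibitor.

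Nuclear lamina, histone and cell death genes hold transcripts often measured in arrested cells. LMNB1 (lamin B1, low in senescent cells) had 1.52 FPKM in PLC and 1.12 FPKM in 97H with the combination, against 7.60 FPKM in PLC and 10.2 FPKM in 97H with the CDK4/6 inhibitor. The log2 difference of LMNB1 was -2.08 (SE 0.45, limma adjusted p = 0.342), and LMNB2 had 26.9 (PLC) and 33.0 (97H) FPKM with the combination, against 35.0 (PLC) and 86.7 (97H) FPKM with the CDK4/6 inhibitor. They are the 2 of 15 tested members of the lamina list that were lower at the unadjusted threshold; 0 were higher and the median was -0.42 (-0.81 in PLC, -0.13 in 97H). EMD (emerin) had a log2 difference of 0.72 and HMGB3 one of -0.74. Of 71 histone entries in the table, 19 passed the filter on low values, and 2 of these, HIST1H2AC and HIST1H2BN, were higher at the unadjusted threshold. Their log2 differences were 1.24 and 0.84, and the list's median was 0.53 (0.68 in PLC, 0.06 in 97H); near-identical copies make the assignment of histone reads uncertain. In the BCL2 family, BMF, a BH3-only activator of apoptosis, had 13.6 FPKM in PLC and 22.2 FPKM in 97H with the combination, against 5.05 FPKM in PLC and 4.55 FPKM in 97H with the CDK4/6 inhibitor. It was the 1 of 13 tested members at the unadjusted threshold (log2 difference 1.67, limma unadjusted p = 0.00575). BBC3 (PUMA) and BIK, likewise BH3-only, had log2 differences of 0.96 and 0.56.

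Transcripts known to be raised by XPO1 inhibitors served as a check on the labels. SLC43A2, an amino acid transporter, had 23.1 FPKM in PLC and 25.3 FPKM in 97H with the combination, against 2.13 FPKM in PLC and 8.47 FPKM in 97H with the CDK4/6 inhibitor. The XPO1 inhibitor alone gave 8.34 FPKM in PLC and 15.8 FPKM in 97H, against 2.81 (PLC) and 3.99 FPKM (97H) in the controls, so all 4 libraries with an XPO1 inhibitor exceeded the library of their line without it. Its log2 difference was 2.21 (SE 0.44, limma adjusted p = 0.263). NGFR, the p75 neurotrophin receptor, had 14.7 FPKM in PLC and 1.74 FPKM in 97H with the combination; with the CDK4/6 inhibitor it had 0.137 FPKM in PLC and was listed at 0 in 97H. ARRDC3, an arrestin-like adaptor, had 1.64 FPKM in PLC and 7.86 FPKM in 97H with the combination, against 0.968 FPKM in PLC and 0.430 FPKM in 97H with the CDK4/6 inhibitor, a log2 difference of 1.53 (limma unadjusted p = 0.0174). XPO1 itself had 18.1 FPKM in PLC and 21.7 FPKM in 97H with the combination, against 20.6 FPKM in PLC and 5.71 FPKM in 97H with the CDK4/6 inhibitor, a level 3.81-fold higher in 97H and 1.14-fold lower in PLC. Its log2 difference over both lines was 0.79 (SE 0.58, limma adjusted p = 1), and -0.014 without the 97H library of the CDK4/6 inhibitor. With the GC content and length trends removed the PLC log2 ratio of XPO1 was 0.39 in place of -0.18.

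In the list of exportins, importins and Ran, XPO1 included, 1 of 32 tested members was lower at the unadjusted threshold and 0 higher. That was KPNA2, an importin alpha that is itself periodic in the cell cycle, with 51.0 FPKM in PLC and 16.3 FPKM in 97H with the combination, against 133 FPKM in PLC and 60.0 FPKM in 97H with the CDK4/6 inhibitor (log2 difference -1.59). RAN, the GTPase that drives transport, had 208 (PLC) and 233 (97H) FPKM with the combination, against 253 (PLC) and 345 (97H) FPKM with the CDK4/6 inhibitor, a log2 difference of -0.42; RANBP1, its cofactor, had -0.63. CSE1L, the export receptor of importin alpha, had log2 ratios of -1.87 in PLC and 0.19 in 97H (97H -0.24 after GC removal). The 28 tested nuclear pore genes held 0 at the unadjusted threshold. CDK4 had 103 (PLC) and 167 (97H) FPKM with the combination, against 113 (PLC) and 225 (97H) FPKM with the CDK4/6 inhibitor. CDK6 had 1.44 (PLC) and 1.90 (97H) FPKM with the combination, against 4.23 (PLC) and 1.10 (97H) FPKM with the CDK4/6 inhibitor. Their log2 differences were -0.28 and -0.32 with adjusted p-values of 1 in limma; without 1 CDK4/6 inhibitor library (97H for CDK4, PLC for CDK6) either value changed sign. CRBN, the substrate receptor of the cullin-4 ligase that the series title names, had 2.16 FPKM in PLC and 2.06 FPKM in 97H with the combination, against 3.92 FPKM in PLC and 0.578 FPKM in 97H with the CDK4/6 inhibitor. Over both lines its log2 difference was 0.16 (SE 0.45, limma adjusted p = 1), which turned negative when the 97H combination library or the 97H CDK4/6 inhibitor library was left out. Of a list holding CRBN, other cullin ligase parts, the COP9 signalosome that regulates them and CRBN neosubstrates, 0 of 26 tested passed the unadjusted threshold.

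Of the 31 genes at least 2-fold higher in both lines, 23 stand in none of the 39 lists, as do 34 of the 83 lower genes and 9484 of all 10477 tested. DUSP15, a dual-specificity phosphatase, had 8.34 FPKM in PLC and 12.0 FPKM in 97H with the combination, against 0.327 FPKM in PLC and 0.0311 FPKM in 97H with the CDK4/6 inhibitor. Alone, the XPO1 inhibitor gave 3.67 FPKM in PLC and 6.82 FPKM in 97H, and the controls had 0.283 and 0.0727 FPKM. Each of the 4 libraries with an XPO1 inhibitor exceeded each of the 4 without it. The log2 difference of DUSP15 was 3.24 (SE 0.39, limma adjusted p = 0.0674), and it lies on chromosome 20, 31845593 to 31870664. PPDPF, named for a factor of pancreatic progenitors in zebrafish, had 709 FPKM in PLC and 306 FPKM in 97H with the combination, against 175 FPKM in PLC and 88.2 FPKM in 97H with the CDK4/6 inhibitor. The log2 difference of PPDPF was 1.90 (SE 0.33, limma adjusted p = 0.202). TRPM4, a calcium-activated cation channel, had 33.1 FPKM in PLC and 22.8 FPKM in 97H with the combination, against 3.28 FPKM in PLC and 5.95 FPKM in 97H with the CDK4/6 inhibitor. For TRPM4 the log2 difference was 2.39 (SE 0.44, limma adjusted p = 0.214). CAPN5, a calpain protease, had 21.4 FPKM in PLC and 32.8 FPKM in 97H with the combination, against 4.61 FPKM in PLC and 9.61 FPKM in 97H with the CDK4/6 inhibitor. For CAPN5 the log2 difference was 1.83 (SE 0.34, limma adjusted p = 0.214).

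Among the other named higher genes, SDC4 (syndecan 4, a heparan sulfate proteoglycan) had 234 (PLC) and 182 (97H) FPKM with the combination, against 97.6 (PLC) and 69.5 (97H) FPKM with the CDK4/6 inhibitor. MDK (midkine, a heparin-binding growth factor) had 821 (PLC) and 733 (97H) FPKM with the combination, against 287 (PLC) and 370.0 (97H) FPKM with the CDK4/6 inhibitor, and AGT (angiotensinogen), 1383 (PLC) and 17.1 (97H) FPKM with the combination, against 471 (PLC) and 8.19 (97H) FPKM with the CDK4/6 inhibitor. C5AR1, the complement C5a receptor, had 4.04 (PLC) and 4.41 (97H) FPKM with the combination, against 0.772 (PLC) and 1.15 (97H) FPKM with the CDK4/6 inhibitor, and SLC6A12, a betaine and GABA transporter, 4.89 (PLC) and 2.16 (97H) FPKM with the combination, against 0.926 (PLC) and 0.405 (97H) FPKM with the CDK4/6 inhibitor. Inside the cell, DDAH2, annotated as a dimethylarginine hydrolase, had 111 (PLC) and 77.2 (97H) FPKM with the combination, against 47.8 (PLC) and 20.9 (97H) FPKM with the CDK4/6 inhibitor. GSN (gelsolin, which severs actin filaments) had 19.6 (PLC) and 39.5 (97H) FPKM with the combination, against 4.73 (PLC) and 17.6 (97H) FPKM with the CDK4/6 inhibitor, and SULT1C2, a sulfotransferase, 6.01 (PLC) and 36.4 (97H) FPKM with the combination, against 1.70 (PLC) and 9.58 (97H) FPKM with the CDK4/6 inhibitor. All 8 were named by rules that required 1 direction in both lines, and their log2 differences ran from 1.25 for MDK to 1.60 for SULT1C2. The 15 higher genes with the smallest p had adjusted p-values of 0.0674 to 0.54 in limma.

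Few lysosome and autophagy genes passed the unadjusted threshold. The lysosomal list had 2 of 48 tested members higher at the unadjusted threshold and 0 lower, 22 higher in both lines and 3 lower in both, and a median of 0.38 (0.42 in PLC, 0.13 in 97H). Over all tested genes, 20.7% were higher in both lines and 21.7% lower in both. The 97H median of the lysosomal list was 0.072 under quantile normalization and 0.0046 under median-of-ratios scaling. CTSD (cathepsin D) had 887 (PLC) and 892 (97H) FPKM with the combination, against 472 (PLC) and 568 (97H) FPKM with the CDK4/6 inhibitor, and PSAP (prosaposin), 847 (PLC) and 709.8 (97H) FPKM with the combination, against 506 (PLC) and 517 (97H) FPKM with the CDK4/6 inhibitor. Of the proton pump, 1 of 19 tested subunits passed the unadjusted threshold: ATP6V0D2, with 1.94 (PLC) and 5.53 (97H) FPKM with the combination, against 0.282 (PLC) and 0.379 (97H) FPKM with the CDK4/6 inhibitor. The pump's median was 0.41 (0.10 in PLC, 0.47 in 97H). In the autophagy list, GABARAPL1, an ATG8 family protein of autophagosomes, was the 1 of 33 at that threshold, with 70.7 (PLC) and 32.5 (97H) FPKM with the combination, against 29.3 (PLC) and 8.76 (97H) FPKM with the CDK4/6 inhibitor. Its log2 difference was 1.51 (SE 0.32, limma adjusted p = 0.342). ULK1, the kinase that starts autophagy, and MAP1LC3B had log2 differences of 1.17 and 0.58, and the list's median was 0.37 (0.11 in PLC, 0.50 in 97H). CLEAR elements (TCACGTGA), known from lysosomal genes, were in 5 of the 33 lysosomal genes with a promoter in the table and in 2.51% of all such tested genes.

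Ribosomal protein genes were lower by small amounts and largely together. Of 84 tested, 59 were lower in both lines and 0 higher in both, where 21.7% of all tested genes were lower in both. At the unadjusted threshold 7 were lower, and the median was -0.33 (-0.57 in PLC, -0.24 in 97H). RPS2 had 1436 (PLC) and 1686 (97H) FPKM with the combination, against 2352 (PLC) and 3320.4 (97H) FPKM with the CDK4/6 inhibitor. RPSA, RPL10A and RPL3 had log2 differences of -0.88, -0.91 and -0.71; these genes have near-identical processed copies to which reads can be assigned. In the ribosome biogenesis and nucleolus list, FBL (fibrillarin, the methyltransferase of rRNA) was the 1 of 45 lower at the unadjusted threshold, with 55.2 (PLC) and 77.2 (97H) FPKM with the combination, against 76.9 (PLC) and 174 (97H) FPKM with the CDK4/6 inhibitor; the list's median was -0.33 (-0.33 in PLC, -0.28 in 97H). FBL was highest in the controls (209 FPKM in PLC and 259 FPKM in 97H).

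**Figure D3:**
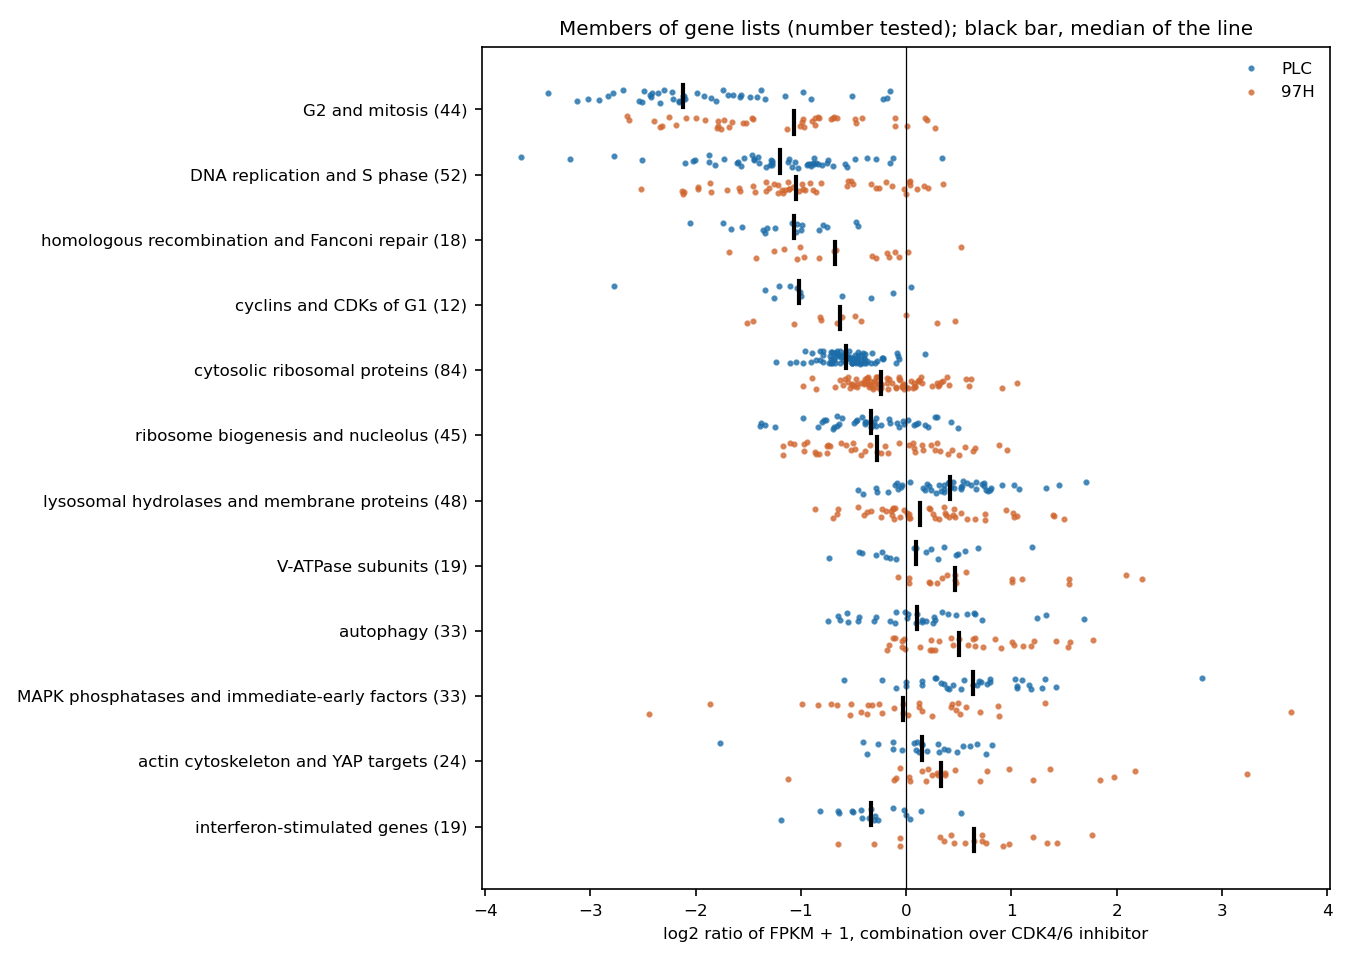
Each dot is a tested member of 1 of 12 gene lists, placed by its log2 ratio of FPKM + 1 (x axis, combination over CDK4/6 inhibitor) in PLC (blue, upper row) or 97H (orange, lower row); black bars are medians and numbers in brackets count tested members. The mitosis list has its PLC median at -2.12 and its 97H median at -1.07, and the medians of the interferon-stimulated genes lie on opposite sides of 0.

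Signalling, matrix and stress lists had few members past the unadjusted threshold, nearly all of them higher. Of 33 tested MAPK phosphatases and immediate-early factors, 4 were higher and 1 lower, with a median of 0.39 (0.63 in PLC, -0.03 in 97H); the 97H median was 0.08 after GC removal. Besides DUSP15 these were DUSP1, a phosphatase of p38 and JNK, with 130.1 (PLC) and 35.3 (97H) FPKM with the combination, against 63.1 (PLC) and 18.8 (97H) FPKM with the CDK4/6 inhibitor, and with them the AP-1 subunits JUND and JUNB, with log2 differences of 0.80 and 0.98. The lower 1 was EGR1, an immediate-early zinc finger factor named after its values were seen, with a log2 difference of -1.27. The YAP targets CYR61 and CTGF are matricellular proteins. CYR61 had 299 (PLC) and 75.6 (97H) FPKM with the combination, against 169.8 (PLC) and 20.3 (97H) FPKM with the CDK4/6 inhibitor. CTGF had 77.5 (PLC) and 73.5 (97H) FPKM with the combination, against 45.5 (PLC) and 15.5 (97H) FPKM with the CDK4/6 inhibitor. CYR61, CTGF, SDC4 and FBLN1 (fibulin 1, log2 difference 0.97) were the 4 of 33 matrix and adhesion genes at the threshold. The actin and YAP list had 3 of 24, MYL9, a myosin light chain, being the third beside CYR61 and CTGF, with 484 (PLC) and 91.8 (97H) FPKM with the combination, against 347 (PLC) and 34.9 (97H) FPKM with the CDK4/6 inhibitor. The medians of the matrix and the actin lists were 0.23 (0.13 in PLC, 0.14 in 97H) and 0.31 (0.15 in PLC, 0.34 in 97H).

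In the stress lists, DDIT3 (CHOP), PPP1R15A (GADD34), which restores translation after stress, and SLC3A2, an amino acid transporter chain, were the 3 of 30 genes of the integrated stress response at the threshold. DDIT3 had 36.0 (PLC) and 43.8 (97H) FPKM with the combination, against 15.5 (PLC) and 16.8 (97H) FPKM with the CDK4/6 inhibitor. The list's median was 0.11, with 12 members higher in both lines and 6 lower in both. Of 22 heat shock genes 3 were higher at the threshold: CRYAB, a small chaperone, with log2 ratios of 0.19 in PLC and 3.86 in 97H, HSPB1 with 0.48 in PLC and 1.15 in 97H, and HSPA1A with 0.51 in PLC and 0.96 in 97H. Reads of HSPA1A can also match its near-identical neighbour HSPA1B, and how such reads were assigned is not stated. For the secretory phenotype of senescent cells, GDF15, MMP14 (a membrane metalloproteinase) and TIMP2 (a metalloproteinase inhibitor) were the 3 of 30 higher at the threshold, 0 were lower, and the median was 0.29 (0.18 in PLC, 0.21 in 97H). MMP14 had 160.4 (PLC) and 107 (97H) FPKM with the combination, against 105 (PLC) and 55.1 (97H) FPKM with the CDK4/6 inhibitor. TIMP2 had 36.5 (PLC) and 219 (97H) FPKM with the combination, against 14.0 (PLC) and 156 (97H) FPKM with the CDK4/6 inhibitor.

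The lists named next had 0 or 1 member at the unadjusted threshold. The median over all tested genes was -0.09 in PLC and 0.08 in 97H. No member passed the unadjusted threshold among the 37 proteasome genes (median log2 difference -0.06), the 61 nuclear genes of oxidative phosphorylation (-0.10), the 23 genes of cholesterol synthesis (0.12), the 23 NRF2 targets and ferritins (-0.07) and the 8 metallothioneins (-0.06). The same held for the 19 interferon-stimulated genes (0.16), the 15 genes of MHC class I presentation (0.13), the 27 hepatocyte genes (0.03), and the tested markers of liver and of other cell types. Some members of these lists lay near the floor in the libraries compared. In PLC, MT1G and IRF7 were listed at 0 FPKM with both treatments. FADS1, a fatty acid desaturase, was the 1 of 14 genes of fatty acid synthesis at the threshold, with 32.0 (PLC) and 15.4 (97H) FPKM with the combination, against 44.0 (PLC) and 39.8 (97H) FPKM with the CDK4/6 inhibitor. ADM (adrenomedullin, a vasodilator peptide induced by hypoxia) was the 1 of 27 in the glycolysis and hypoxia list, with 49.1 (PLC) and 145 (97H) FPKM with the combination, against 35.0 (PLC) and 64.2 (97H) FPKM with the CDK4/6 inhibitor. HERPUD1, a membrane protein of endoplasmic reticulum degradation, was the 1 of 21 chaperone and quality control genes, with 123 (PLC) and 22.9 (97H) FPKM with the combination, against 83.5 (PLC) and 13.5 (97H) FPKM with the CDK4/6 inhibitor. SDC4 was the 1 of 23 NF-kappaB genes, whose median was 0.31 (0.42 in PLC, 0.02 in 97H). Some medians near 0 changed sign under quantile or median-of-ratios scaling, or with the GC content and length trends removed: over both lines those of the chaperone, CRBN and cullin-4, glycolysis and hypoxia, and NRF2 lists; in PLC those of the proteasome, NRF2, integrated stress response and damage response lists; and in 97H those of the nuclear pore, histone, oxidative phosphorylation, integrated stress response, NF-kappaB and MAPK lists.

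Whether KPT330 acted alike without the CDK4/6 inhibitor was read from the XPO1 inhibitor against control, which shares no library with the comparison above. There 48 genes were at least 2-fold higher in both lines (0.458%) and 7 at least 2-fold lower (0.0668%). Of the 31 genes higher with the combination, 11 were among those 48, which is 35.5% of the 31 and 22.9% of the 48; they include DUSP15, PPDPF, CAPN5, DDAH2, SDC4, SLC43A2, GABARAPL1 and BMF. Of the 83 lower genes 1 was among the 7, which is 1.20% of the 83 and 14.3% of the 7. With no fold limit, 48 of the 83 were lower in both lines with the XPO1 inhibitor against control. Likewise 23 of the 31 were higher in both lines there. These counts with no fold limit have no share over all tested genes beside them. All 83 had lower FPKM with the combination than in the XPO1 inhibitor and control libraries of the same line. The 83 were chosen by low values in these same combination libraries, so the count follows in part from that choice. The XPO1 inhibitor and control libraries did not enter the choice. Of the 31 higher genes, 25 had higher FPKM with the combination than in the 3 other libraries of the same line, in both lines. The same limit holds for them, and neither count has a share over all tested genes beside it. The median log2 ratio of the 83 was -1.62 in PLC and -1.66 in 97H for the combination over the CDK4/6 inhibitor, the values that chose them, and -0.17 in PLC and -0.64 in 97H for the XPO1 inhibitor over control. For the 31 the first pair was 1.25 (PLC) and 1.48 (97H), and the second 0.63 (PLC) and 1.29 (97H). Tested gene by gene in the same limma fit, the difference between the 2 effects passed the adjusted threshold for 0 genes, and 60 genes (0.573%) had an unadjusted p under 0.05. For RRM2 it was -2.66 (SE 0.57), for BIRC5 -2.23 (SE 0.52) and for PPDPF 0.02 (SE 0.46), each with a limma adjusted p of 1.

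**Figure D4:**
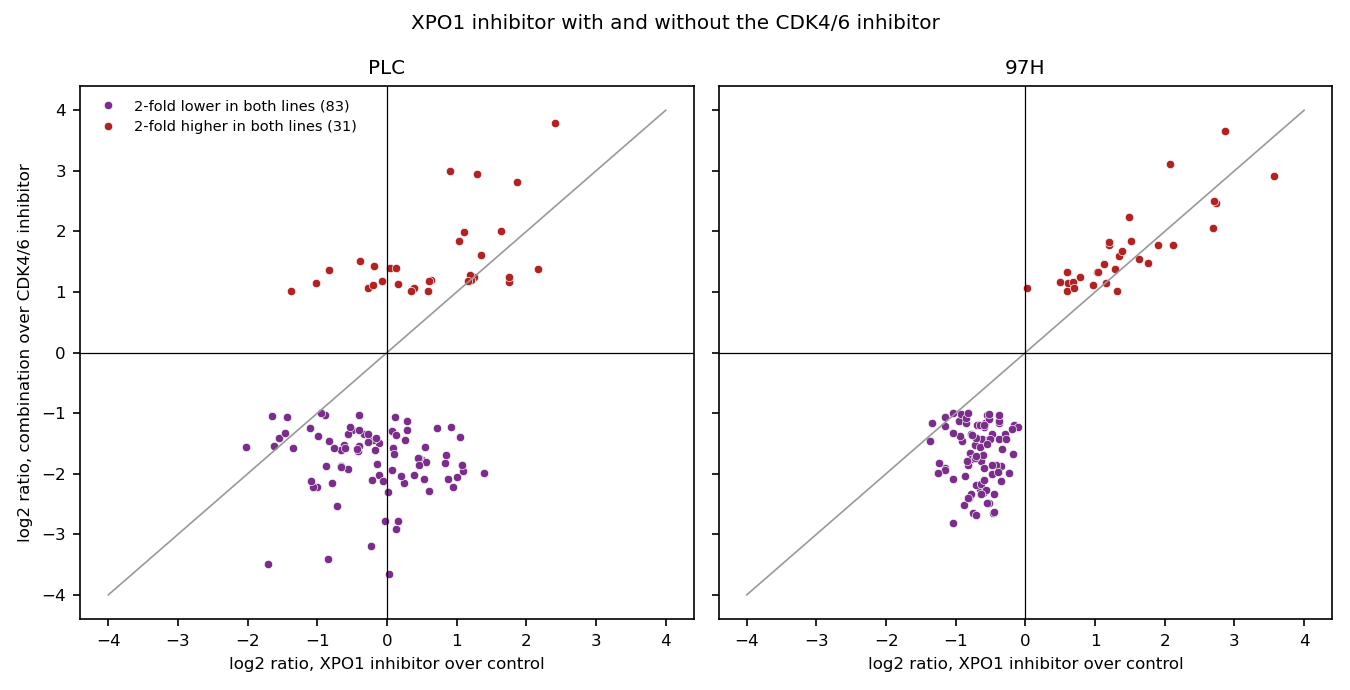
For each line, the log2 ratio of FPKM + 1 of the combination over the CDK4/6 inhibitor (y axis) against that of the XPO1 inhibitor over control (x axis), for the 83 genes lower (purple) and the 31 higher (red) in both lines; the y axis chose the genes, and the grey line marks equal ratios. In 97H the 31 higher genes lie near the grey line, and in both panels the 83 lower genes lie mostly below it.

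Apart from the genes above, PLC and 97H shared little of the difference. Of the tested genes, 2273 were lower in both lines, 2164 higher in both and 6036 had no shared direction. Across genes the log2 ratios of the lines had a Spearman rho of -0.17, a description over genes that share libraries. The ratio followed the GC content of transcripts in opposite ways (Spearman rho 0.57 for PLC, -0.39 for 97H). Among the 1044 tested genes with the lowest GC content the median log2 ratio was -0.73 in PLC and 0.47 in 97H, and among the 1044 with the highest it was 0.24 in PLC and -0.03 in 97H. With smooth trends on GC content and length removed, the rho between lines was 0.11, and the medians of the 83 lower genes were -1.71 in PLC and -1.68 in 97H. The part of GC content in any difference between the lines was not tested.

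**Figure D5:**
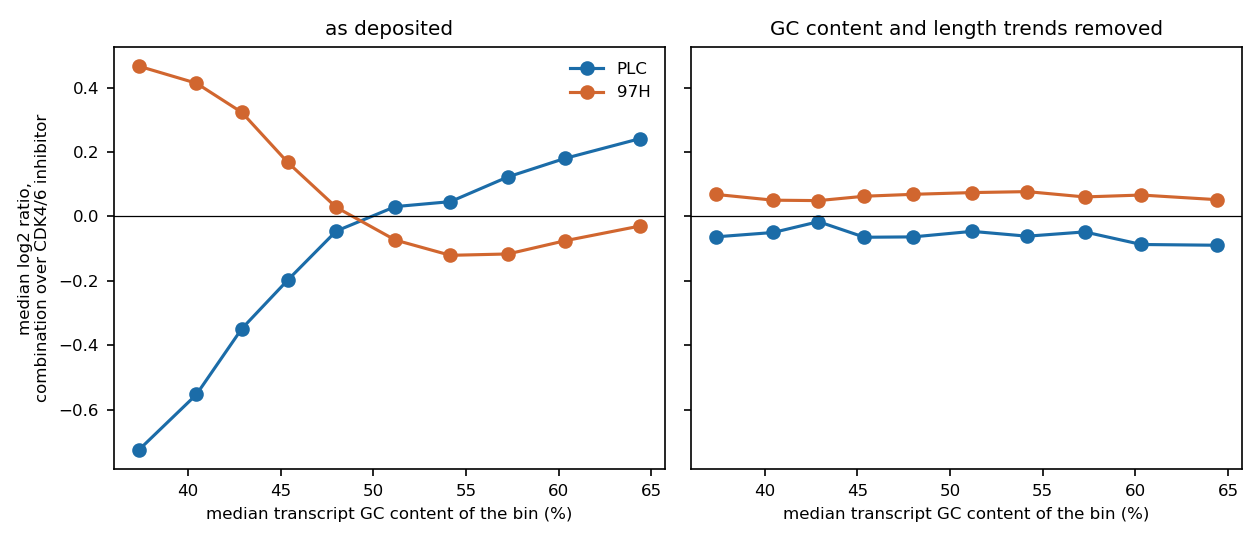
Median log2 ratio (y axis, combination over CDK4/6 inhibitor) in 10 equal bins of the tested genes by transcript GC content (x axis, per cent), in PLC and 97H, for values as deposited (left) and after removal of trends on GC content and length (right). As deposited, PLC runs upward over the bins, from -0.73 to 0.24, and 97H downward from 0.47 to -0.12 before a slight turn up; after removal both are nearly flat.

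In opposite directions by at least 2-fold in each line were 85 genes, of which 79 were higher in 97H and lower in PLC and 6 the other way. Higher in 97H and lower in PLC was ANKRD1, a YAP target also known as cardiac ankyrin repeat protein, with 34.3 (PLC) and 9.29 (97H) FPKM with the combination, against 119 (PLC) and 1.62 (97H) FPKM with the CDK4/6 inhibitor. SPARC, a matricellular protein, had 1.53 (PLC) and 38.6 (97H) FPKM with the combination, against 5.93 (PLC) and 6.72 (97H) FPKM with the CDK4/6 inhibitor. The integrin subunit gene ITGAV had 5.25 (PLC) and 18.3 (97H) FPKM with the combination, against 15.2 (PLC) and 5.33 (97H) FPKM with the CDK4/6 inhibitor. The splicing factor gene SF3B1, RP2 (a GTPase activator of ARL3) and NIPSNAP3A had log2 ratios of -1.32 in PLC and 1.51 in 97H, -1.64 in PLC and 1.44 in 97H, and -1.29 in PLC and 1.38 in 97H. Higher in PLC and lower in 97H was FOSL1, an AP-1 subunit, with 10.5 (PLC) and 27.7 (97H) FPKM with the combination, against 3.28 (PLC) and 104 (97H) FPKM with the CDK4/6 inhibitor. POLR2A, the largest subunit of RNA polymerase II, had 27.2 (PLC) and 11.0 (97H) FPKM with the combination, against 13.0 (PLC) and 26.6 (97H) FPKM with the CDK4/6 inhibitor. HCFC1 (a chromatin cofactor), SRCAP (a chromatin remodeller), WNT7B (a WNT ligand) and TFAP2A (a transcription factor) had log2 ratios in PLC of 1.20, 1.07, 1.04 and 1.11, and in 97H of -1.13, -1.13, -1.07 and -1.01. With 1 library on each side of a ratio, these differences between lines have no test. The log2 ratio of the CDK4/6 inhibitor over control was above 0 in both lines for FOSL1, ANKRD1 and SPARC. For the other genes named here it had opposite signs in PLC and 97H. It was -1.31 in PLC and 0.91 in 97H for POLR2A, and 1.98 in PLC and -1.34 in 97H for SF3B1. ANKRD1 had 2.15 FPKM in the PLC control, below its 34.3 FPKM with the combination.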

How the data were processed

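Total RNA of the 3 lines of the series (PLC, 97H, Huh7) came from a Trizol extraction, and libraries from a TruSeq kit, per the labels' protocols. Per the submitters' processing notes, CASAVA 1.8.2, STAR 2.4.2g1, featureCounts (Subread, version not given) and GRCh38 were used; these do not state how FPKM was derived. The table deposited by the authors holds FPKM for 20030 entries in 10 libraries; 27 symbols turned into dates were restored from Entrez gene IDs. Read depth is unknown: FPKM sums of 321388 to 377933 do not measure it, so precision rests on how far treatment differences varied between lines.

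Differences of log2(FPKM + 1) were tested with limma 3.58.1 (R 4.3.3, two-sided, trended prior variance, Benjamini-Hochberg over the 10477 genes whose mean in the 10 libraries reached 1 FPKM) in the 8 PLC and 97H libraries, with cell line as a block and 3 residual degrees of freedom. The pseudocount of 1 shrinks differences of low genes. Same-line libraries pair by the labels; deviations of combination and CDK4/6 inhibitor libraries correlated at r = 0.848. The fit was tested on simulated data. GC content and length came from GENCODE 29 transcripts (10438 of 10477 tested genes), positions and promoters from RefSeq GRCh38.p14. Named genes were up to 15 in each direction by smallest p with 1 direction in both lines, 8 in each direction by the smaller absolute ratio of the 2 lines, 6 in each opposite pattern, up to 4 by smallest p from each described list among 39 gene lists, and XPO1, CDK4, CDK6 and the XPO1 inhibitor response genes; CRBN was added for the series title. The comparison, lists and named rules were chosen with earlier results of these data known. Alternatives changed the libraries, block, pseudocount, filter, scaling, prior variance and GC content, and left out each library. Some genes are not reported here.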

Additional observations from a re-analysis of the deposited data

Results flagged for a closer look

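The following stand out because the median of a list, or a gene, had opposite signs in PLC and 97H; with 1 library per line and treatment the difference was not tested. Values are the log2 ratio (combination over CDK4/6 inhibitor) in PLC minus that in 97H, beside medians over all tested genes of -0.09 in PLC and 0.08 in 97H.

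Lower in PLC and higher in 97H were the interferon-stimulated genes (-0.98), the liver line markers (-0.86), the heat shock genes (-0.67), the CRBN and cullin-4 ligase genes (-0.50), the CDK inhibitors (-0.47), the nuclear genes of oxidative phosphorylation (-0.46), the nuclear pore genes (-0.45), the damage response genes of the CDKN1A type (-0.39) and the hepatocyte genes (-0.23). Some interferon-stimulated genes lay near the floor in PLC. There IRF7 was listed at 0 with both treatments, and OAS2 at 0 with the combination, against 0.015 FPKM with the CDK4/6 inhibitor. Higher in PLC and lower in 97H were the MAPK phosphatases and immediate-early factors (0.66), fatty acid synthesis (0.51), cholesterol synthesis (0.45) and the endoplasmic reticulum chaperones (0.21). The signs were no longer opposite for the nuclear pore genes under quantile normalization, median-of-ratios scaling and GC removal, for the damage response genes under quantile normalization, for oxidative phosphorylation under median-of-ratios scaling, for the MAPK list after GC removal and for the hepatocyte genes under both scalings, where the PLC median was 0.

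Among genes, the difference was -3.81 for SPARC, -3.74 for ANKRD1, -3.09 for RP2, -2.98 for ITGAV, -2.83 for SF3B1, -2.67 for NIPSNAP3A, -1.94 for XPO1 and -1.56 for CDK6. It was 3.29 for FOSL1, 2.33 for HCFC1, 2.22 for POLR2A, 2.20 for SRCAP, 2.12 for WNT7B and 2.12 for TFAP2A. These 14 differences kept their sign with a pseudocount of 0.1, both scalings and GC removal, although XPO1 was then higher in both lines after GC removal (0.39 in PLC, 1.40 in 97H). Many of them shrank after GC removal. Of the genes named for opposite directions, FOSL1, ANKRD1 and SPARC then stayed clearly past 2-fold in both lines. Most others fell under 2-fold in at least 1 line, such as NIPSNAP3A (-0.53 in PLC, 0.88 in 97H) and SRCAP (0.70 in PLC, -0.80 in 97H).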

How the results depend on the processing

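The count of genes at an adjusted p under 0.05, 0 as reported, was 3 with all 10 libraries, 8 with a pseudocount of 0.1, 6 with the filter over the 8 libraries, 8 with quantile normalization, 5 with median-of-ratios scaling and 30 (5 higher, 25 lower) with GC content and length trends removed, and 0 under the other planned settings; leaving out 1 library gave 0 to 8. The count at an unadjusted p under 0.05, 345 as reported, was 90 with no replicate block for the cell line (pairing), 559 with no filter and 754 after GC and length removal; leaving out 1 library gave 241 to 647, with 639 without the PLC control and 647 without the 97H control. The cause was not tested. Of 109 named genes over these alternatives, 67 values came to pass the adjusted threshold and 5 changed sign: without the PLC CDK4/6 inhibitor library CDK6 was 0.49; without the 97H CDK4/6 inhibitor library XPO1 was -0.014, CDK4 0.011 and CRBN -0.22; without the 97H combination library CRBN was -0.52. Over all libraries left out in turn, log2 differences ran from -0.014 to 1.60 for XPO1, -0.52 to 0.84 for CRBN, -0.56 to 0.011 for CDK4 and -1.12 to 0.49 for CDK6. No other of these 109 genes reversed. Outside the 109, among the genes named for opposite directions in the lines, HCFC1 and RP2 changed sign over both lines after GC and length removal. Their log2 differences went from 0.038 to -0.057 for HCFC1 and from -0.10 to 0.035 for RP2. With median-of-ratios scaling the median of all tested genes in 97H was -0.02, against 0.08 as reported. The unknown depth limits what can be said of genes near 0 FPKM.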

Other observations

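Some genes differed far more in 1 line than in the other, where TXNIP and HMMR lay under 1 FPKM. C3 is given for PLC only. All were chosen after their values were seen, and are given as values without a test. In 97H, SLC44A2 (a choline transporter-like protein) had 94.0 FPKM with the combination, against 1.86 FPKM with the CDK4/6 inhibitor, while PLC had 9.83 FPKM, against 8.30 FPKM; with the XPO1 inhibitor alone it had 76.3 FPKM in 97H, against 0.650 FPKM in the control. TXNIP, an inhibitor of thioredoxin, had 35.5 FPKM in 97H with the combination, against 1.83 FPKM with the CDK4/6 inhibitor, and was under 0.1 FPKM in all 4 PLC libraries. TAGLN, an actin-binding protein, had 166 FPKM in 97H with the combination, against 16.7 FPKM with the CDK4/6 inhibitor, while PLC had 2.28 FPKM, against 1.86 FPKM. Lower in 97H was UHRF1, which maintains DNA methylation at replication, with 2.48 FPKM, against 14.3 FPKM, while PLC had 7.47 FPKM with the combination, against 5.68 FPKM with the CDK4/6 inhibitor.

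In PLC, C3 (complement component 3) had 358 FPKM with the combination, against 80.8 FPKM with the CDK4/6 inhibitor, and ANPEP (aminopeptidase N) had 84.3 FPKM, against 17.2 FPKM; in 97H ANPEP had 59.2 FPKM with the combination, against 72.6 FPKM with the CDK4/6 inhibitor. Of the mitotic genes, HMMR, a spindle protein, had 0.548 FPKM in PLC with the combination, against 7.83 FPKM with the CDK4/6 inhibitor, while 97H had 0.715 FPKM, against 0.495 FPKM.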
